A study of Homo sapiens with 4 samples.

Results

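The genes described here make and break down ceramide and sphingosine 1-phosphate, or receive the sphingosine 1-phosphate signal. The set names 10 genes: the sphingosine kinases SPHK1 and SPHK2, the phosphatase SGPP1, the lyase SGPL1, the receptors S1PR1 and S1PR3, the ceramide synthases CERS2 and CERS6, the acid ceramidase ASAH1 and the glucosylceramide synthase UGCG. A member entered through a probe set, a group of short probes for the same transcript, that the platform annotation ties to a single gene symbol. Where a gene had several such probe sets, the one used was chosen by its highest mean over the 4 arrays, a measured value that holds both groups. That step decided nothing for the members, since each measured member had 1 probe set. The genes themselves were chosen with results of these arrays known, among them the value of SGPP1, so that what follows is a description of the set and not independent support for it. Of the 10 genes 9 had such a probe set and 8 were bright enough to be tested, out of 17716 genes measured and 12402 tested. SPHK2 was not analysed here.

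The arrays held total RNA of Hs683, an established line of human glioma cells. The 2 miR-20a arrays came from cells transduced with miR-20a, and the 2 miR-NT arrays from cells given a scrambled microRNA with no intended target. QK, the gene now called QKI, had been knocked down in the cells of both groups, so that no array shows cells without the knockdown. How far the knockdown lowered QKI therefore cannot be read from these arrays. The labels do not say whether replicates were separate cultures, how QKI was knocked down, whether the cells were 1 clone, or how much miR-20a the cells made.

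Ceramide is the hub of the pathway. It is built from serine and a fatty acid or released from more complex sphingolipids, and it is turned into sphingomyelin, into glucosylceramide, or by ceramidases into sphingosine. Sphingosine kinases phosphorylate sphingosine to sphingosine 1-phosphate, which leaves the cell and signals through G-protein-coupled receptors, or is removed inside it by phosphatases that return sphingosine and by a lyase that cleaves it for good. In glioma cells ceramide is known mostly for its links to growth arrest and cell death, and sphingosine 1-phosphate for its links to proliferation and migration.

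MicroRNAs of the miR-17 family recognise transcripts mainly through their seed, bases 2 to 8, which are printed in capitals in the mature sequences that follow. The sequences are from RefSeq (build GRCh38.p14, 5′ to 3′). They are shown because miR-20a is what sets the groups apart. Both arms of its precursor, on the plus strand at chr13:91351072-91351094 and chr13:91351108-91351129, are given since the labels name no arm, and miR-20b-5p stands for the relatives with the same seed.
hsa-miR-20a-5p: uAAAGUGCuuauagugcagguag
hsa-miR-20a-3p: aCUGCAUUaugagcacuuaaag
hsa-miR-20b-5p: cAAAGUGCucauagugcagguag
The seed of miR-20a-5p was found in 8 mature microRNAs of that table, and miR-20a-3p has a different one. Whether transcripts of the members hold matches to either seed was not analysed here.

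The probe set of SGPP1, the phosphatase of the endoplasmic reticulum that returns sphingosine 1-phosphate to sphingosine, read lower by almost 1 log2 unit with miR-20a, while those of SPHK1, which makes sphingosine 1-phosphate, and SGPL1, which destroys it, overlapped between the groups. ASAH1, which releases sphingosine from ceramide in lysosomes, came next after SGPP1 in size, and CERS2, CERS6, UGCG and the receptor S1PR3 read 0.20 to 0.33 lower. No member passed the test over all genes.

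Values are log2 expression values throughout, so that a difference of 1 is a 2-fold difference. SGPP1 (probe set 221268_s_at) measured 5.25 and 5.14 with miR-20a, against 6.06 and 6.29 with miR-NT. The miR-20a pair lay below the miR-NT pair, with a gap of 0.82 between the nearest arrays of the 2 groups. The means were 5.19 ± 0.075 with miR-20a and 6.18 ± 0.16 with miR-NT (SD, n = 2 each), a log2 fold change of −0.98 (SE 0.11, 95% interval −1.25 to −0.72), or 1.98-fold lower. This ranked 5th of 12402 genes by p (limma, unadjusted p = 3.58e-05, adjusted p = 0.0726) and missed the threshold of 0.05 on the adjusted p. It passed after median centring (limma adjusted p = 0.0421) and with an intensity trend and a robust prior (0.0409). Without miR-20a replicate 1 or replicate 2 the log2 fold change of SGPP1 was −1.04 or −0.93. Without miR-NT replicate 1 or replicate 2 it was −1.10 or −0.87. In fits with a lone array in a group, that group is assumed to vary like the other. Their p-values are therefore not given for single genes. A more negative log2 fold change was found for 71 genes, 0.572% of those tested. SGPP1 is dim on these arrays: its mean over the 4 arrays, 5.68, is close to the 5.46 below which genes were left out, and its mean with miR-20a lies under that bound. It therefore entered the test through its miR-NT values, and no count or median over the tested members is read as support for a shift of the set.

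SPHK1 (219257_s_at), the cytosolic sphingosine kinase, measured 9.77 and 9.44 with miR-20a, against 9.44 and 9.51 with miR-NT. One miR-20a array was the highest of the 4 and the other lay level with the miR-NT pair, so that the groups overlapped. The log2 fold change was 0.13 (SE 0.13, 95% interval −0.17 to 0.44, limma adjusted p = 0.559). It turned to −0.036 without miR-20a replicate 1 and was 0.30 without miR-20a replicate 2. SGPL1 (212321_at), the lyase that ends the pathway by cleaving sphingosine 1-phosphate, measured 7.13 and 7.17 with miR-20a, against 7.24 and 7.15 with miR-NT. These groups overlapped too, and the log2 fold change of −0.05 (SE 0.10, limma adjusted p = 0.777) had a 95% interval of −0.27 to 0.18. The intervals of SPHK1 and SGPL1 leave room for small differences in either direction, and do not reach the value of SGPP1.

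**Figure D1:**
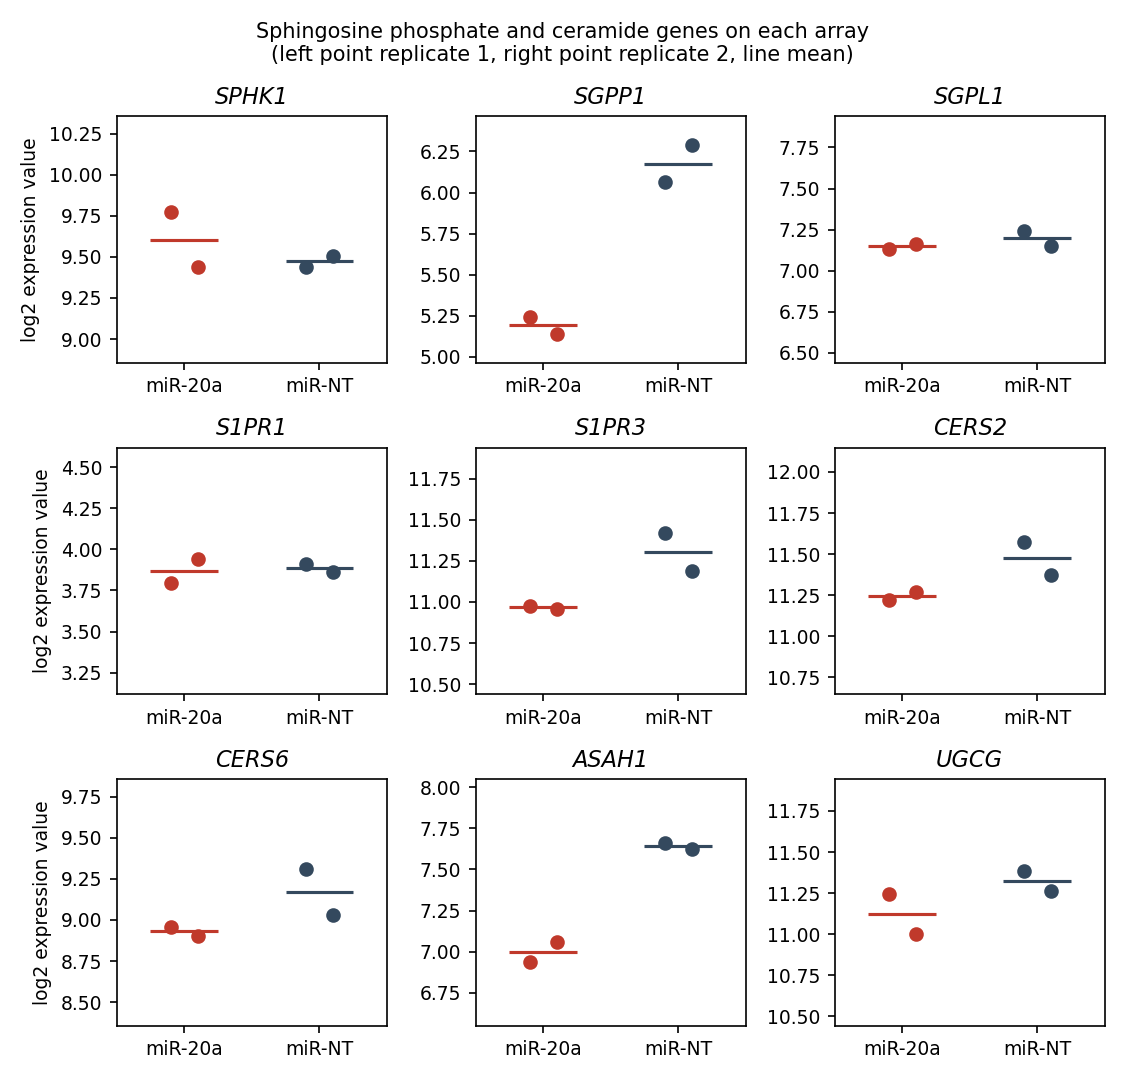
Log2 expression value (vertical axes, each spanning 1.5 log2 units) of the 9 measured members on the 2 miR-20a arrays (red) and the 2 miR-NT arrays (dark); points are arrays and lines are group means. SGPP1 and ASAH1 show the widest gaps between the groups (0.82 and 0.56), while SPHK1, SGPL1 and S1PR1 overlap.

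Both measured receptors bind extracellular sphingosine 1-phosphate. S1PR3 (228176_at), which couples to several classes of G proteins, measured 10.97 and 10.96 with miR-20a, against 11.42 and 11.19 with miR-NT. The 2 miR-20a values, which were nearly equal, were the lowest of the 4. The log2 fold change was −0.33 (SE 0.11, 95% interval −0.59 to −0.07, limma adjusted p = 0.197), or 1.26-fold lower, and it did not pass. S1PR1 (204642_at), known for guiding lymphocytes and for its role in blood vessels, measured 3.80 and 3.94 with miR-20a, against 3.91 and 3.86 with miR-NT. These values overlapped and were among the lowest 30% of genes by mean, so S1PR1 was left out of the test. With no filter on dim genes its log2 fold change was −0.02 (95% interval −0.25 to 0.22, limma adjusted p = 0.922). A probe set this dim may hold little signal of its transcript, which limits what its fold change can show.

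Among the members that make, degrade or convert ceramide, ASAH1 (1555419_a_at) differed most. It measured 6.94 and 7.06 with miR-20a, against 7.66 and 7.62 with miR-NT. The 2 groups stood 0.56 apart at their nearest arrays, and the replicates of each group differed by 0.12 or less. The means were 7.00 ± 0.088 with miR-20a and 7.64 ± 0.028 with miR-NT (SD, n = 2 each), a log2 fold change of −0.64 (SE 0.10, 95% interval −0.88 to −0.41), or 1.56-fold lower. The gene ranked 40th by p (limma, unadjusted p = 0.000261, adjusted p = 0.0787), did not pass, and had 251 genes with a more negative log2 fold change, 2.02% of those tested. Leaving out miR-20a replicate 1 or replicate 2 gave a log2 fold change of −0.58 or −0.70 for ASAH1. Leaving out miR-NT replicate 1 or replicate 2 gave −0.62 or −0.66.

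CERS2 (222212_s_at), the synthase that attaches very long acyl chains, measured 11.22 and 11.27 with miR-20a, against 11.58 and 11.37 with miR-NT. CERS6 (212442_s_at), which prefers a shorter chain, measured 8.96 and 8.90 with miR-20a, against 9.31 and 9.03 with miR-NT. In both synthases the miR-20a arrays lay below the miR-NT arrays, but by only 0.10 for CERS2 and 0.07 for CERS6, less than the difference between the miR-NT replicates. Their log2 fold changes were −0.23 (SE 0.11, 95% interval −0.48 to 0.02) for CERS2 and −0.24 (SE 0.12, 95% interval −0.52 to 0.04) for CERS6, with limma adjusted p of 0.294 and 0.309. UGCG (224967_at), which adds glucose to ceramide as the first step towards most glycosphingolipids, measured 11.25 and 11.00 with miR-20a, against 11.38 and 11.27 with miR-NT. The nearest arrays of its groups were 0.02 apart. Its log2 fold change was −0.20 (SE 0.12, 95% interval −0.47 to 0.07, limma adjusted p = 0.368), within the spread between replicates.

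**Figure D2:**
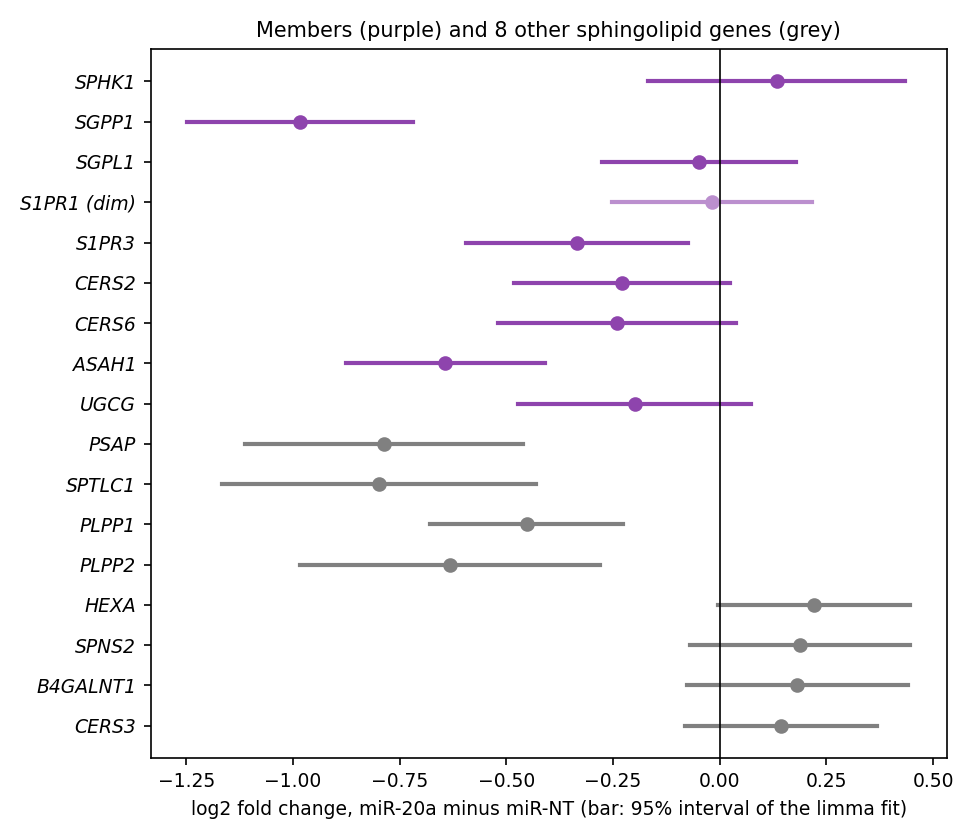
Log2 fold change, miR-20a minus miR-NT (horizontal axis, points), with the 95% interval of the limma fit (bars, 2 arrays a group) for the 9 measured members (purple; S1PR1, left out as dim, from the fit with no filter) and 8 other sphingolipid genes named for their small p (grey). The intervals of the members SGPP1, ASAH1 and S1PR3 and of PSAP, SPTLC1, PLPP1 and PLPP2 lie below 0, and none of the genes passed at an adjusted p under 0.05.

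Over all genes, limma called 1 of 12402 at an adjusted p under 0.05, which is 0.00806%, and 0 of the 8 tested members. The unmoderated linear model also called 0 of the members. At an unadjusted p under 0.05, 3 members (SGPP1, ASAH1 and S1PR3) were lower and 0 were higher, where 13.2% of all genes were lower and 5.82% higher. The miR-20a pair lay wholly below the miR-NT pair in 6 of the 8, against 31.1% of all genes, and wholly above it in 0, against 25.1%. The median log2 fold change was −0.24 over the 8 tested members and −0.02 over all genes tested; over the 9 measured members it was −0.23. With 2 arrays in each group, the smallest p that an exact permutation test allows is 0.333, so such a test was left out. In bulk RNA, fewer cells with a transcript and less of it per cell cannot be told apart.

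**Figure D3:**
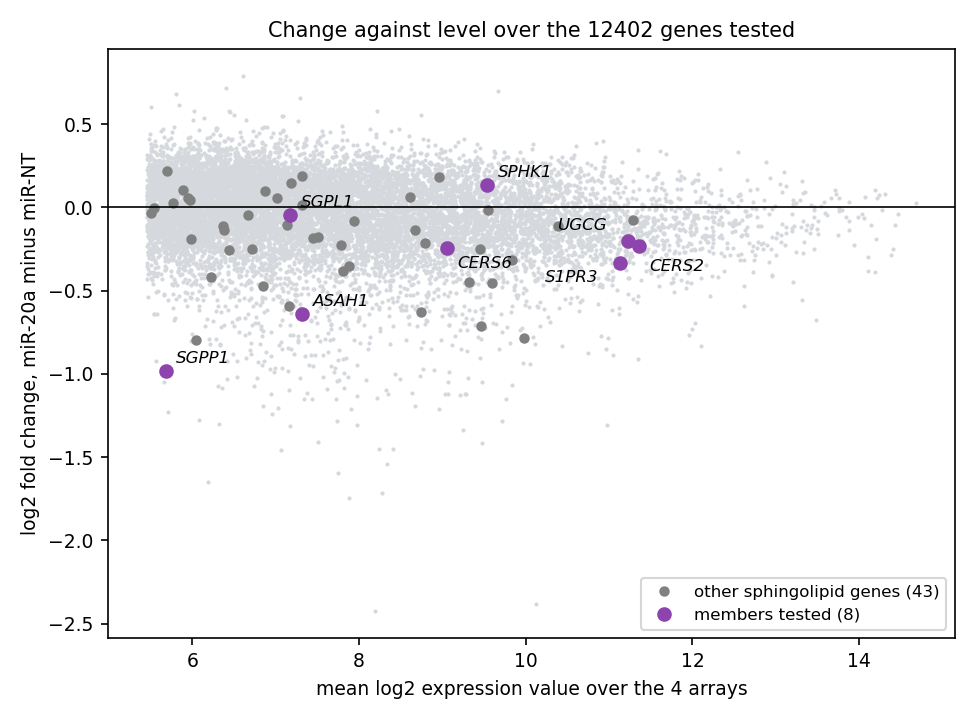
Log2 fold change, miR-20a minus miR-NT (vertical axis), against the mean log2 expression value over the 4 arrays (horizontal axis) for each of the 12402 genes tested (light points), with 43 other sphingolipid genes (grey) and 8 members (purple). SGPP1 sits at the dim end, at a mean of 5.68 and a log2 fold change of −0.98; levels of different probe sets are not comparable between genes.

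Probe sets for the 5′ part of 2 control transcripts, whose signal drops where RNA is degraded or labelling is short, read lower with miR-20a. That of ACTB read 11.59 and 10.43 with miR-20a, against 12.78 and 12.66 with miR-NT, so that miR-20a replicate 2 was the lowest. That of GAPDH read 13.17 and 12.30 with miR-20a, against 13.89 and 13.81 with miR-NT. QKI read 7.52 and 7.08 with miR-20a, against 8.14 and 7.92 with miR-NT. Its log2 fold change was −0.73 (limma unadjusted p = 0.00189, adjusted p = 0.106) and did not pass. The part of this QKI difference in the members' values was not tested. Array medians lay between 6.43 and 6.45. Of 12 astrocyte and glial progenitor markers, VIM, SOX9 and CD44 were bright, SOX2, PDGFRA and CSPG4 were dim but tested, and GFAP, S100B, NES, OLIG1, OLIG2 and SLC1A3 were left out as dim. CD44 had a log2 fold change of −0.87 (limma unadjusted p = 0.000559, adjusted p = 0.0948), larger in size than that of ASAH1, while PDGFRA was at 0.37 and CSPG4 at 0.36 (limma adjusted p = 0.136 and 0.193).

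Markers of other cell types were in part dim and in part not. Of 6 immune markers 4 were measured: PTPRC and CD14 were dim, CD3E was at 0.28 and AIF1 at 0.20. The log2 values of the 4 measured immune markers summed to 24.1 and 24.5 with miR-20a, against 24.1 and 23.8 with miR-NT. Of 5 endothelial markers CDH5, VWF, KDR and TEK were left out as dim. PECAM1, dim but tested with a mean over the 4 arrays of 5.89, was at 0.30. The log2 values of all 5 summed to 24.1 and 24.9 with miR-20a, against 24.2 and 24.3 with miR-NT. Of 4 neuron markers STMN2 was left out as dim. RBFOX3, dim but tested with a mean of 5.63, was at 0.32, SYT1 at 0.04 and SNAP25 at −0.21. These 4 summed to 23.8 and 24.2 with miR-20a, against 23.7 and 23.6 with miR-NT. Of 4 epithelial markers EPCAM and CDH1 were dim, while the keratins KRT18 and KRT8 were bright, with means over the 4 arrays of 12.65 and 8.02 and log2 fold changes of −0.02 and −0.05. The log2 values of all 4 epithelial markers summed to 29.0 and 28.7 with miR-20a, against 28.8 and 28.9 with miR-NT. At an unadjusted p under 0.05 in limma, CD3E, PECAM1 and RBFOX3 were higher with miR-20a, as were PDGFRA and CSPG4, and CD44 was lower. No marker passed at an adjusted p under 0.05, as no member did. The part of these markers in the members' values was not tested.

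Within the miR-20a pair, replicate 2 differed from replicate 1 by −1.16 in the ACTB 5′ control, by −0.11 in SGPP1 and by 0.12 in ASAH1. The same difference was −0.34 for SPHK1 and −0.24 for UGCG. The part of RNA quality in the members' values was not tested. When the ACTB 5′ signal entered the fit as a covariate, the log2 fold change was −0.86 for SGPP1 (SE 0.25, limma adjusted p = 0.176) and −0.82 for ASAH1 (SE 0.25, limma adjusted p = 0.199). S1PR3 was at −0.28, CERS2 at −0.27, CERS6 at −0.12 and SGPL1 at −0.08 in the same fit. UGCG turned to 0.17 and SPHK1 stood at 0.62 (limma adjusted p = 0.477), where the median of all genes was 0.05. The covariate also separates the groups, so that this fit has little to tell their effects apart with, as its SE shows. That SE was the same, 0.25, for all tested members, so it does not measure the spread of a single gene.

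**Figure D4:**
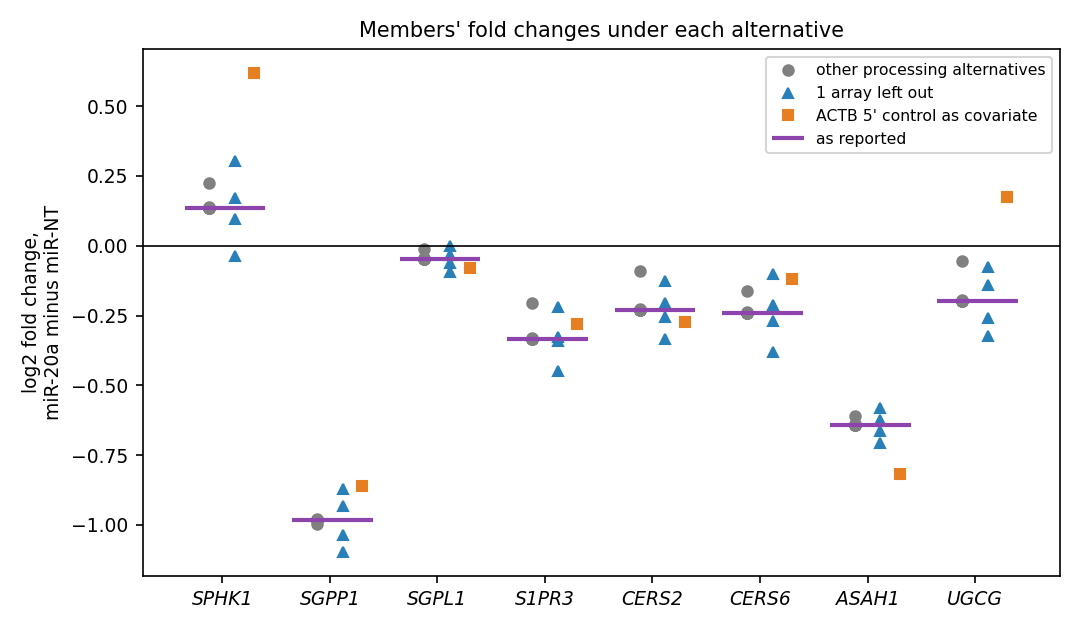
Log2 fold change, miR-20a minus miR-NT (vertical axis), of the 8 tested members as reported (purple lines), with 1 array left out (triangles), with the ACTB 5′ control as a covariate (squares) and under the other processing alternatives (circles). SGPP1 stayed between −1.10 and −0.86 and ASAH1 between −0.82 and −0.58, while SPHK1 and UGCG each changed sign under 1 alternative.

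The rest of the pathway was described from a list of 60 further genes of sphingolipid metabolism, 48 of them measured and 43 tested. At an adjusted p under 0.05 limma called 0 of the 43 in either direction. At an unadjusted p under 0.05, 13 were lower and 0 higher with miR-20a, where 13.2% of all genes were lower and 5.82% higher. Of the 43 log2 fold changes 31 were below 0, with a median of −0.14, where 53.8% of all genes were below 0 with a median of −0.02. The miR-20a pair lay wholly below the miR-NT pair in 23, against 31.1% of all genes, and wholly above it in 5, against 25.1%. These counts describe the list and were not tested. By function, and to be read against the same 53.8%, 8 of 11 genes of ceramide synthesis from serine were below 0 (median −0.25), as were 8 of 9 genes for the disposal, export and reception of sphingosine 1-phosphate (median −0.21) and 11 of 13 of glycosphingolipid synthesis and breakdown (median −0.11). Ceramidases and ceramide kinase were below 0 in 2 of 3 (median −0.02). Sphingomyelin turnover and ceramide transport had 2 of 7 below 0 and a median of 0.05. Groups this small can differ from the share over all genes by a few genes, and no difference between them was tested.

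The 4 genes of that list with the smallest p among the lower values are neighbours of the members in the pathway. PSAP, the precursor of the saposins that help lysosomal enzymes such as acid ceramidase reach their lipids, measured 9.77 and 9.41 with miR-20a, against 10.46 and 10.28 with miR-NT (log2 fold change −0.79, SE 0.14, limma adjusted p = 0.0948). SPTLC1, a subunit of the serine palmitoyltransferase that starts ceramide synthesis, measured 5.81 and 5.48 with miR-20a, against 6.63 and 6.26 with miR-NT (−0.80, SE 0.16, limma adjusted p = 0.0962). In both genes the miR-20a arrays were the lower pair and replicate 2 was the lowest of the 4.

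The lipid phosphate phosphatases PLPP1 and PLPP2 act on sphingosine 1-phosphate among other substrates. PLPP1 measured 9.41 and 9.32 with miR-20a, against 9.81 and 9.83 with miR-NT, and its log2 fold change was −0.45 (SE 0.10, limma adjusted p = 0.107). PLPP2 measured 8.63 and 8.22 with miR-20a, against 9.16 and 8.95 with miR-NT, at −0.63 (SE 0.15, limma adjusted p = 0.122). Neither pair of groups overlapped. SGPP2, the close relative of SGPP1, was dim and untested: it measured 5.20 and 5.55 with miR-20a, against 5.20 and 5.39 with miR-NT, and its groups overlapped. The fit with the ACTB 5′ covariate gave log2 fold changes of −0.23 for PSAP, −0.27 for SPTLC1, −0.32 for PLPP1 and −0.002 for PLPP2. Each had an SE of 0.25 in that fit, and a difference between genes was not tested.

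Among values above 0, those with the smallest p were small. HEXA, a subunit of the lysosomal hexosaminidase that degrades gangliosides, was at 0.22 (SE 0.10, limma adjusted p = 0.271). SPNS2, an exporter of sphingosine 1-phosphate, was at 0.19, the ganglioside synthase B4GALNT1 at 0.18 and the ceramide synthase CERS3 at 0.14, with limma adjusted p from 0.369 to 0.418. In all 4 the miR-20a pair lay above the miR-NT pair. With the ACTB 5′ covariate SPNS2 and B4GALNT1 turned to −0.15 and −0.04. The 2 probe sets of the galactosyltransferase B4GALT6, the only listed gene with more than 1, disagreed in sign, at −0.25 for the brighter and 0.16 for the other.

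The genes whose pattern over the 4 arrays was most like that of SGPP1 were FUT8, IGFBP5, PICALM, TRRAP and NECTIN2, by the root mean square distance between values centred on each gene's own mean. These distances ran from 0.086 (FUT8) to 0.131 (NECTIN2) on the log2 scale. FUT8, which adds core fucose to N-glycans, measured 6.06 and 6.09 with miR-20a, against 6.97 and 7.01 with miR-NT. The log2 fold changes of the 5 genes lay between −1.03 and −0.77. With 4 arrays in 2 groups, likeness of this kind mostly restates a fold change of about the same size.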

How the data were processed

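Total RNA was measured on 4 Affymetrix expression arrays (2 miR-20a, 2 miR-NT). The deposited values are log2 expression values, judged from their range; affy, an R package, was used per the submitters' processing notes. Its version, and how values were summarised, background-corrected and normalized, is not given in the sources used here. Of 20323 probe sets, 18062 had 1 gene symbol, 886 several and 1375 none in the platform annotation; symbols were updated through gene identifiers to RefSeq. Control probe sets were left out of gene tests. The probe set with the highest mean stood for each of 17716 genes, and the dimmest 30% were left out.

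A two-sided limma test (limma 3.58.1, R 4.3.3, lmFit and eBayes) compared miR-20a with miR-NT without covariates, and p-values were adjusted by Benjamini-Hochberg over all 12402 genes, with a threshold of 0.05. The fit had 2 residual and 5.53 prior degrees of freedom. SEs and 95% intervals, which are not adjusted, are from this fit, and all p-values rest on the spread between these arrays alone, possibly technical. The number of arrays limits the precision. The fit was tested on simulated data in which every gene had the same spread. That simulation held no difference in RNA quality between arrays, so it does not show how the fit behaves under one.

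The members, the lists and the tests were chosen with earlier results of these data known. Named were all members, the 4 smallest p in each direction among the other pathway genes, QKI, the ACTB and GAPDH controls, and the 5 genes most like SGPP1; markers, SGPP2 and B4GALT6 were added for what they are. The alternatives tried were no filter, a filter on the dimmest 50%, median centring, quantile normalization, the ACTB 5′ covariate, the replicate number as a block, a robust prior with an intensity trend, averaged probe sets per gene, an unmoderated linear model and each array left out. The files name no genome build, so no gene positions are given.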

Additional observations from a re-analysis of the deposited data

How the results depend on the processing

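Over the alternatives that gave a value, SGPP1, SGPL1, S1PR3, CERS2, CERS6 and ASAH1 kept their sign in each (12 for SGPP1, which fell out with the dimmest 50%, and 13 for the others). The adjusted p of SGPP1 in limma was 0.0421 after median centring, which moved its log2 fold change only to −0.98, and 0.0409 with an intensity trend and a robust prior; elsewhere, all arrays kept, it ranged from 0.0553 after quantile normalization to 0.498 in the unmoderated linear model. ASAH1 did not pass in any fit of all arrays. With 1 array left out, SGPP1 lay between −1.10 and −0.87 and ASAH1 between −0.70 and −0.58. UGCG turned to 0.17 with the ACTB 5′ covariate. SPHK1 ranged from −0.036 to 0.30 with 1 array left out. The median over the tested members ranged from −0.36 (without miR-NT replicate 2) to −0.13 with 1 array left out, and was −0.13 after quantile normalization, where that of all genes was 0.03.

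Over all genes, 1 was lower and 0 higher as reported. The numbers lower and higher were 5 and 0 after quantile normalization, 45 and 2 after median centring, 4 and 0 with the dimmest 50% left out, 23 and 1 with an intensity trend and a robust prior, 5 and 1 with the ACTB 5′ covariate, and 0 and 1 in the unmoderated linear model; the cause was not tested. They ran from 0 to 1567 lower and from 0 to 302 higher with 1 array left out, most without miR-20a replicate 1. With the replicate block 0 were lower and 0 higher, and SGPP1 and ASAH1 both had an adjusted p of 0.139. Same-numbered arrays deviated together (r = 0.267 across genes), but with 2 pairs the samples share only a number. Dim probe sets such as those of SGPP1 and S1PR1 limit what a fold change can show.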
